A study of Rattus norvegicus with 18 samples.

Results

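The genes described here encode 8 secreted antimicrobial proteins of the airways and alveoli: Lyz2, Ltf, Lcn2, Slpi, Pigr, Bpifa1, Bpifb1 and Reg3g. They were found by gene name in the deposited tables of rat lung RNA-seq, which list 22081 genes, and all 8 were found. The rule used the names only, but the genes were chosen with earlier results of these data known.

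The rats were male F344 rats, 18 in all, in 6 groups of 3 rats. The MWCNT-treated rats received MWNT-7, a multiwalled carbon nanotube, at 0.5 mg/kg body weight by instillation into the trachea every 4 weeks from 9 weeks of age, and the control rats received the vehicle in the same way. Rats of both treatments were examined at Years 0.5, 1, and 2 of the experiment, each rat giving 1 library from the accessory lobe of the lung, and tissue with tumors visible at necropsy was left out by the study. The samples are whole lung tissue, so that a difference in the share of a cell type and a difference in RNA per cell cannot be told apart.

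Antimicrobial proteins in the fluid that lines the airways and alveoli act in several ways. Lysozyme cuts the bacterial cell wall. Lactoferrin and lipocalin 2 keep iron from bacteria, SLPI inhibits the proteases of neutrophils, the polymeric immunoglobulin receptor carries IgA across the epithelium, and BPIFA1 and BPIFB1 are lipid-binding proteins of the upper airway and its glands. REG3 proteins are lectins that kill Gram-positive bacteria and are best known from the intestine.

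The libraries held between 13297643 and 21130757 counts. The label lung was checked with marker lists. Summed levels of the alveolar type 1 markers were between 2508 and 5789 TPM (a level scaled by transcript length and by library), and those of the alveolar type 2 markers were between 28209 and 61992 TPM, over the 6 groups. In the endothelial list, 4 of 5 markers were found by name and summed to between 317 and 1411 TPM; Pecam1 was not analysed here. Heart muscle markers were also present, at 72.9 to 669.9 TPM in control rats and 15.6 to 202 TPM in MWCNT-treated rats.

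Lyz2, Lcn2, and Pigr were upregulated in MWCNT-treated rats at all 3 time points, Slpi and Bpifb1 at Year 0.5 and Year 1, and Bpifa1 at Year 2. A gene was called a differentially expressed gene (DEG) at a false discovery rate (FDR) below 0.05 over all genes tested and an absolute log2 fold change above 1, by the quasi-likelihood test of edgeR on the counts. Of the 8 genes, 6 passed the filter on low counts at each time point, and Ltf and Reg3g did not. At Year 0.5, 5 of the 6 were upregulated and none was downregulated, where 6.07% of all genes tested were upregulated and 9.10% were DEGs in either direction. At Year 1, 5 of the 6 were upregulated, against 6.13% of all genes upregulated and 10.2% in either direction. At Year 2, 4 of the 6 were upregulated, against 8.17% upregulated and 16.4% in either direction. They include Bpifa1, which passed the filter at Year 2 only with the MWCNT-treated rats, where it was high. The median log2 fold change of the 6 genes was 1.28, 1.20, and 1.74 at Years 0.5, 1, and 2, and that of all genes was -0.02, 0.00, and -0.01. In CPM, the 3 MWCNT-treated rats were all above the 3 control rats in 5 of the 6 genes at each time point, against 26.2%, 28.0%, and 30.9% of all genes tested. These counts leave out Ltf and Reg3g, so they are not counts of all 8 genes. As the genes were chosen with earlier results of these data known, the counts are a description.

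**Figure D1:**
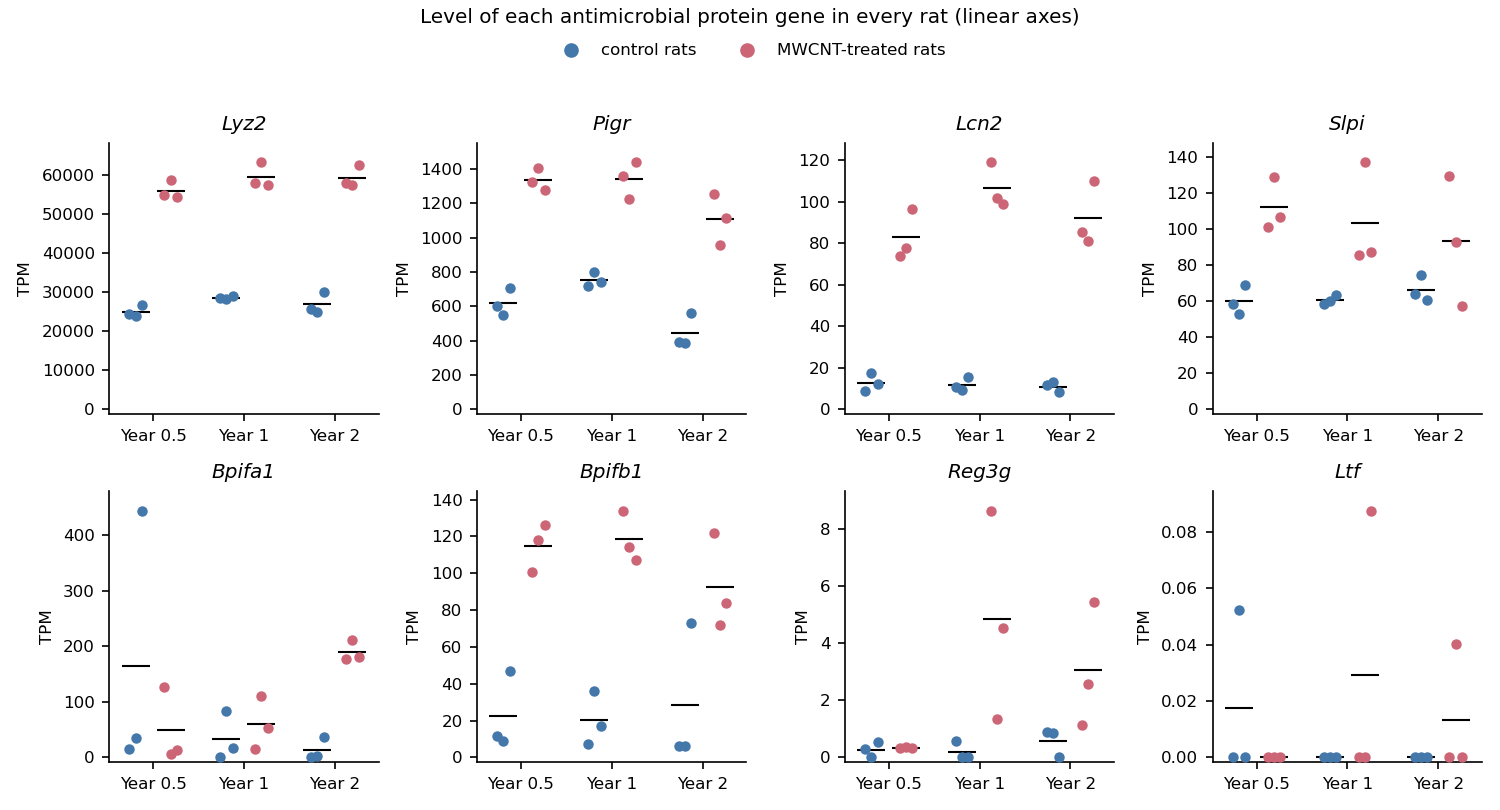
Level of each of the 8 genes in TPM on linear axes, with 1 point for each of the 18 rats and a black line for the mean of the 3 rats of a group. The MWCNT-treated rats lie above all control rats for Lyz2, Pigr, and Lcn2 at each time point, whereas Bpifa1 is scattered at Year 0.5 and Year 1 and Ltf is at 0 in 15 of the 18 rats.

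Lysozyme was by far the most abundant of these transcripts. Lyz2 (ENSRNOG00000005825, chr7:60335969-60341264, minus strand, in the coordinates of the deposited tables, for which the processing notes name Rnor_6.0) is the lysozyme gene of macrophages and alveolar type 2 cells. Lyz2 at Year 0.5 was 24258, 23883, and 26684 TPM in the control rats and 54827, 58657, and 54227 TPM in the MWCNT-treated rats. Lyz2 at Year 1 was 28554, 28127, and 28952 TPM in the control rats and 57880, 63080, and 57383 TPM in the MWCNT-treated rats. Lyz2 at Year 2 was 25546, 24952, and 30008 TPM in the control rats and 57791, 57327, and 62347 TPM in the MWCNT-treated rats. Every MWCNT-treated rat was above every control rat, at any time point. The log2 fold change was 1.31 (SE 0.09, FDR 1.90e-05), 1.30 (SE 0.11, FDR 4.66e-05), and 1.36 (SE 0.09, FDR 5.21e-06) at Years 0.5, 1, and 2 by edgeR, or 2.48-fold, 2.46-fold, and 2.56-fold. These values differed from each other by less than their standard errors. The spread of Lyz2 within groups was small, with a standard deviation of 0.09 in control rats and 0.10 in MWCNT-treated rats on the log2 scale of CPM (counts scaled by library), and 79% and 72.5% of all genes had a larger one.

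Lyz2 made up 2.39% to 3.00% of all TPM in the control rats, where it ranked 1 or 2 among all genes. In the MWCNT-treated rats it made up 5.42% to 6.31% and ranked 1 in each rat. The 8 genes together made up 2.45% to 3.07% of all TPM in control rats and 5.58% to 6.48% in MWCNT-treated rats, and Lyz2 was 95.4% to 98.2% of that sum. A share this large also enters the TPM of the other genes, since TPM adds up to the same total in every rat.

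A neighbouring paralog, Lyc2 (chr7:60316045-60323609, plus strand), lies 12359 bases from Lyz2 in the deposited coordinates on the opposite strand, so that the 3′ ends of the 2 genes face each other. Lyc2 had 101 to 172 counts in control rats and 278 to 489 counts in MWCNT-treated rats, and Lyz2 had 1525 to 2310 times as many counts in control rats and 1560 to 2062 times as many in MWCNT-treated rats. Its log2 fold change was 1.49 (SE 0.13), 1.48 (SE 0.18), and 1.38 (SE 0.20), and it was a DEG at each time point. Reads of near-identical genes may have been split between them by the counting, so that the Lyc2 values are uncertain. The sequences before the start of both genes are shown here because they end in the same letters: the capitals mark a run of 39 bases, identical in both, that ends at the base before the start of the RefSeq transcript (GRCr8, Lyz2 at chr7:54798012-54798091 on the minus strand, Lyc2 at chr7:54772929-54773008 on the plus strand, 5′ to 3′ along each gene).
Lyz2: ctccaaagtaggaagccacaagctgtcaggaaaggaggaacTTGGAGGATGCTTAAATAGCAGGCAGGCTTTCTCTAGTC
Lyc2: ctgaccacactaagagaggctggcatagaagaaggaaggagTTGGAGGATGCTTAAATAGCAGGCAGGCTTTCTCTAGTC
Farther from the start they differ, since 52 of these 80 bases and 84 of the 250 bases before the start were the same.

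Pigr (ENSRNOG00000004405, chr13:47572219-47591699, plus strand) encodes the polymeric immunoglobulin receptor, whose extracellular part is shed with IgA as secretory component. Pigr at Year 0.5 was 602, 551, and 708 TPM in the control rats and 1326, 1404, and 1276 TPM in the MWCNT-treated rats. Pigr at Year 1 was 718, 797, and 743 TPM in the control rats and 1360, 1227, and 1437 TPM in the MWCNT-treated rats. Pigr at Year 2 was 392, 386, and 559 TPM in the control rats and 1251, 959, and 1114 TPM in the MWCNT-treated rats. The lowest of the 9 MWCNT-treated rats was above the highest of the 9 control rats. The log2 fold change was 1.25 (SE 0.10, FDR 3.57e-05), 1.07 (SE 0.08, FDR 2.42e-05), and 1.54 (SE 0.16, FDR 5.63e-05). In fold this was 2.38, 2.1, and 2.9.

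The larger Pigr fold at Year 2 came with lower control rats. In the model of all 18 rats, Pigr in control rats differed by -0.73 on the log2 scale between Year 2 and Year 1 (SE 0.13, FDR 0.00643) and by -0.47 between Year 2 and Year 0.5 (SE 0.13, FDR 0.0369), which passed the FDR but not the limit on the fold change. Over all genes, 7.93% and 6.65% passed the FDR in these comparisons. The difference between Year 2 and Year 1 kept the FDR without any 1 rat (highest FDR 0.0414). That between Year 2 and Year 0.5 lost it without replicate 1 or 3 of Year 0.5 or replicate 1 or 2 of Year 2 (FDR 0.0957 to 0.158). Of the MWCNT-treated rats, those of Year 2 differed from those of Year 1 by -0.25 (SE 0.13, FDR 0.289). The difference between the effects at Year 2 and Year 1 was 0.48 (SE 0.18, 95% confidence interval 0.10 to 0.86, FDR 0.194) and did not pass the test. Without replicate 3 of the control rats of Year 2, the highest of that group, it was 0.66 and passed (FDR 0.0365). Without any other 1 rat it did not pass (FDR 0.14 to 0.406).

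Of the IgA pathway, Jchain moved in the same direction as Pigr, and Igha, the gene of the IgA heavy chain, was not found by name. Jchain, the chain that joins IgA into the polymers that PIGR carries, was upregulated at all 3 time points, with log2 fold changes of 1.31 (SE 0.24), 1.09 (SE 0.20), and 1.74 (SE 0.58). Its levels were 153 to 520 TPM in control rats and 303 to 1634 TPM in MWCNT-treated rats, and these ranges overlapped. The highest value was that of replicate 1 of the MWCNT-treated rats of Year 2, and the other 8 had 303 to 617 TPM. Without that rat the log2 fold change at Year 2 was 0.81 (FDR 0.145), and the call was also lost without replicate 1 or 2 of the control rats of Year 2 (FDR 0.109 and 0.104). At Year 1 it was lost without replicate 1 of the control rats (0.92) or replicate 3 of the MWCNT-treated rats (0.95). Of the 6 plasma cell markers, Jchain among them, 6, 5, and 5 were tested, 1, 1, and 2 were upregulated, against 6.07%, 6.13%, and 8.17% of all genes, and none was downregulated. Jchain itself was called at each time point, and the other marker called at Year 2 was Derl3 (1.22, SE 0.32). The Derl3 call was lost without replicate 2 of the MWCNT-treated rats (0.95, FDR 0.0554). The summed level of the plasma cell markers was 406 to 807 TPM in control rats and 638 to 2053 TPM in MWCNT-treated rats. Without replicate 1 of the MWCNT-treated rats of Year 2 the latter was 638 to 1019 TPM. Jchain and Sdc1 made up most of the sum. The part of plasma cells in the Jchain values was not tested.

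Lcn2 showed the largest fold change among the genes that were upregulated at all 3 time points. Lcn2 (ENSRNOG00000013973, chr3:11414186-11417546, minus strand) encodes lipocalin 2, which binds the siderophores with which bacteria take up iron. Lcn2 at Year 0.5 was 8.92, 17.3, and 12.2 TPM in the control rats and 74.1, 78, and 96.5 TPM in the MWCNT-treated rats. Lcn2 at Year 1 was 10.7, 9.36, and 15.6 TPM in the control rats and 119, 102, and 98.9 TPM in the MWCNT-treated rats. Lcn2 at Year 2 was 11.5, 13.2, and 8.23 TPM in the control rats and 85.6, 81.3, and 110.1 TPM in the MWCNT-treated rats. The groups were far apart, with the highest control rat of all at 17.3 TPM and the lowest MWCNT-treated rat at 74.1 TPM. The log2 fold change was 2.85 (SE 0.21, FDR 2.38e-05), 3.38 (SE 0.17, FDR 3.22e-06), and 3.28 (SE 0.18, FDR 1.86e-06), or 7.2-fold, 10.4-fold, and 9.72-fold. The control rats spread more than the MWCNT-treated rats on the log2 scale, with a standard deviation of 0.40 against 0.18. Lcn2 was below Slpi in counts in each control rat and above it in 3 of the 9 MWCNT-treated rats.

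The 250 bases before the Lcn2 start are shown because Lcn2 had the largest of these folds and is a textbook target of NF-kB (RefSeq, GRCr8, chr3:36081781-36082030, minus strand). The capitals mark matches to GGGNNNNNCC on either strand, with overlapping matches on both strands in the first of them.
Lcn2: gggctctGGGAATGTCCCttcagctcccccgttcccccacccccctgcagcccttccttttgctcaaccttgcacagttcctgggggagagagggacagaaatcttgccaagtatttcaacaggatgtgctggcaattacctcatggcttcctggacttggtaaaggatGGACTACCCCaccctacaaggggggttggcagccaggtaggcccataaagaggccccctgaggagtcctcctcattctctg
These letters are common: 42.3% of the 33469 RefSeq windows of this length held them, and so did 5 of the 7 windows found for the genes described here. Slpi had no window. A match is a description of the letters only.

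Ltf, the lactoferrin gene (ENSRNOG00000031779, chr8:119290416-119313261, plus strand), was near the limit of detection. There were 4 counts in all 18 rats together, and 15 rats had 0. The counts were 1 in replicate 2 of the control rats of Year 0.5, 2 in replicate 3 of the MWCNT-treated rats of Year 1, and 1 in replicate 2 of the MWCNT-treated rats of Year 2. A count of 0 allows up to 3 counts, or 0.142 to 0.226 CPM at these depths, which covers counting error only. No difference between the groups was detectable at this depth.

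Both Ltf and Lcn2 are stored in the granules of neutrophils, so the neutrophil markers are given beside them. Of the 10 neutrophil markers, 8 were tested, and 1, 2, and 2 were upregulated at Years 0.5, 1, and 2, against 6.07%, 6.13%, and 8.17% of all genes, namely S100a9 at each time point and S100a8 at Year 1 and Year 2. The summed level was 251 to 442 TPM in control rats and 395 to 1179 TPM in MWCNT-treated rats. S100a8 and S100a9 made up most of it, with 79.7 to 161 and 93.8 to 164 TPM in control rats. In MWCNT-treated rats they had 102 to 401 and 226 to 699 TPM. Mmp8 (-0.02, 0.12, and 0.32), Camp (0.11, 0.44, and 0.34), and Ngp (-0.83, -0.72, and 0.31) were not DEGs. Fcnb was not a DEG either (-0.52, -0.00, and -0.86), and it passed the FDR at Year 2 only. The defining granule genes Mpo and Elane had at most 3 counts in every rat. Cxcr2, the chemokine receptor of neutrophils, had log2 fold changes of 0.06, 0.35, and 0.38 (FDR 0.824, 0.15, and 0.281), and Csf3r, the receptor of G-CSF, had -0.06, -0.14, and -0.17 (FDR 0.738, 0.458, and 0.461).

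Slpi (ENSRNOG00000046699, chr3:160799981-160802433, minus strand) encodes the secretory leukocyte protease inhibitor. Slpi at Year 0.5 was 58.3, 52.9, and 69 TPM in the control rats and 101, 129, and 107 TPM in the MWCNT-treated rats. Slpi at Year 1 was 58.7, 59.9, and 63.6 TPM in the control rats and 85.8, 137, and 87.5 TPM in the MWCNT-treated rats. Slpi at Year 2 was 64.1, 74.5, and 60.7 TPM in the control rats and 129.6, 92.8, and 57.6 TPM in the MWCNT-treated rats. The groups did not overlap at Year 0.5 and Year 1, but at Year 2 replicate 3 of the MWCNT-treated rats was below the lowest control rat. The log2 fold change was 1.05 (SE 0.13, FDR 0.000333) and 1.02 (SE 0.20, FDR 0.00365) at Year 0.5 and Year 1, where Slpi was a DEG just above the limit of 1. At Year 2 it was 0.71 (SE 0.25, FDR 0.0427), which passed the FDR and not the limit.

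The Slpi calls turned on single rats because the fold was near the limit. At Year 0.5 it was 0.97 without replicate 2 of the control rats and 0.93 without replicate 2 of the MWCNT-treated rats. At Year 1 it was 1.00, just under the limit before rounding, without replicate 2 of the control rats and 0.70 without replicate 2 of the MWCNT-treated rats, the highest rat of all for Slpi. The FDR stayed below 0.05 in each of these. The spread of Slpi was 0.14 in control rats and 0.45 in MWCNT-treated rats on the log2 scale of CPM, against a median of 0.15 over all genes in each.

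Slpil2 and Slpil3 are paralogs near Slpi, with Slpil3 22888 bases from it. Slpil2 had 8 to 70 counts in a rat and Slpil3 had 0 in every rat, and Slpi had 13.8 to 60 times the counts of Slpil2. Elane, Ctsg, and Prtn3 encode serine proteases of neutrophil granules, among them the elastase that SLPI inhibits. Elane and Ctsg did not pass the filter, and Prtn3 was tested at Year 1 and Year 2 with log2 fold changes of -0.82 (FDR 0.25) and -0.77 (FDR 0.317).

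**Figure D2:**
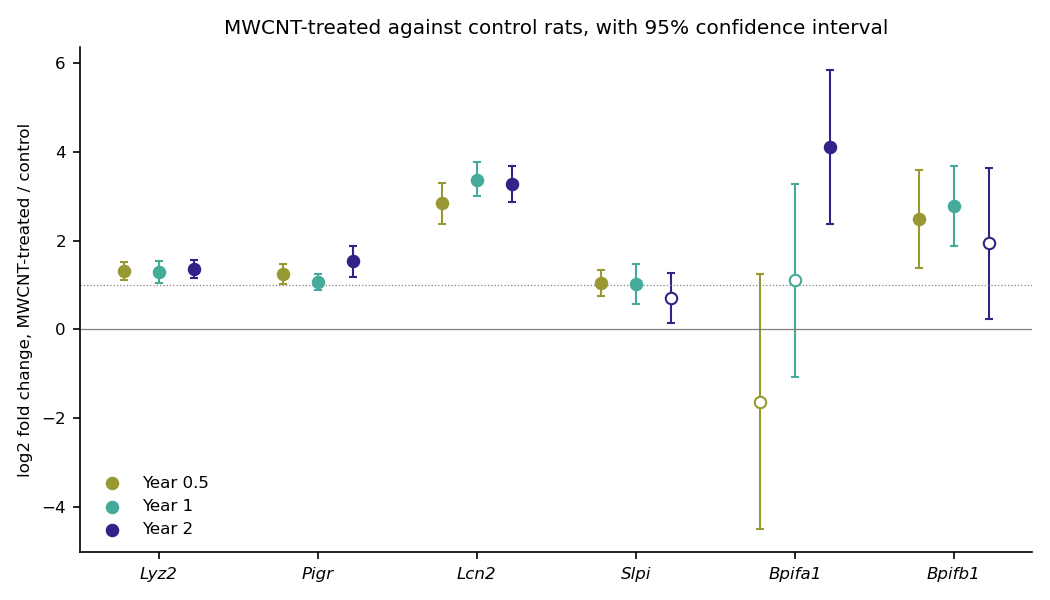
Log2 fold change of MWCNT-treated against control rats for the 6 genes that passed the filter, with 95% confidence intervals from edgeR (vertical bars) at Years 0.5, 1, and 2. Filled points are DEGs, open points are not, and the dotted line is the limit of 1; the intervals are narrow for Lyz2 and Pigr and reach from -4.51 to 1.25 for Bpifa1 at Year 0.5.

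Bpifa1 and Bpifb1 lie 37488 bases apart on chromosome 3. Bpifb1 (ENSRNOG00000015468, chr3:149668102-149702399, plus strand) was higher in MWCNT-treated rats at each time point, whereas Bpifa1 (ENSRNOG00000013859, chr3:149624712-149630613, plus strand) was separated from the control rats only at Year 2 in the per-rat values. Bpifb1 at Year 0.5 was 11.7, 9.09, and 47 TPM in the control rats and 100.5, 118, and 126 TPM in the MWCNT-treated rats. Bpifb1 at Year 1 was 7.41, 36.3, and 17.3 TPM in the control rats and 134, 114, and 107 TPM in the MWCNT-treated rats. Bpifb1 at Year 2 was 6.08, 6.5, and 73.2 TPM in the control rats and 122, 71.8, and 83.6 TPM in the MWCNT-treated rats. The MWCNT-treated rats were above the control rats at Year 0.5 and Year 1, and at Year 2 replicate 3 of the control rats was level with the lowest MWCNT-treated rat, just above it in TPM and below it in CPM. The log2 fold change was 2.49 (SE 0.49, FDR 0.00387) and 2.78 (SE 0.40, FDR 0.0008) at Year 0.5 and Year 1, and 1.95 (SE 0.75, FDR 0.058) at Year 2, where Bpifb1 was not a DEG. Without replicate 3 of the control rats of Year 2, it was 4.08 (FDR 1.93e-05).

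Bpifa1 at Year 0.5 was 14.6, 35.2, and 444 TPM in the control rats and 127, 5.93, and 14 TPM in the MWCNT-treated rats. Bpifa1 at Year 1 was 1.55, 84, and 16.3 TPM in the control rats and 14.8, 111, and 53.6 TPM in the MWCNT-treated rats. Bpifa1 at Year 2 was 0.896, 2.19, and 36.5 TPM in the control rats and 177, 211, and 181 TPM in the MWCNT-treated rats. The groups were mixed at Year 0.5 and Year 1, and the highest rat of all was a control rat of Year 0.5. The log2 fold change was -1.63 (SE 1.27, FDR 0.341) at Year 0.5 and 1.11 (SE 0.96, FDR 0.382) at Year 1. At Year 2 it was 4.11 (SE 0.77, FDR 0.00197), and Bpifa1 was a DEG. Without replicate 3 of the control rats of Year 0.5, the highest rat, the fold at Year 0.5 turned to 1.10 (FDR 0.464), and without replicate 3 of the control rats of Year 2 that at Year 2 was 7.13 (FDR 7.84e-07).

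The effect on Bpifa1 at Year 2 minus that at Year 0.5 was 5.74 on the log2 scale (SE 1.91, 95% confidence interval 1.71 to 9.78), with an unadjusted p of 0.00803 and an FDR of 0.169 over all genes by edgeR, so a difference in effect between the time points was not called. Bpifa1 in control rats differed by -3.67 on the log2 scale between Year 2 and Year 0.5 and did not pass the test (SE 1.44, FDR 0.128). In MWCNT-treated rats the same difference was 2.07 (SE 1.26, FDR 0.307).

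Control rats differed in Bpifa1 and Bpifb1 more than in almost any other gene. The spread within the groups was 2.65 in control rats and 1.57 in MWCNT-treated rats for Bpifa1 on the log2 scale of CPM, and 0.0808% and 0.512% of all genes had a larger one. For Bpifb1 it was 1.51 in control rats but 0.28 in MWCNT-treated rats, and 0.627% and 22.5% of all genes had a larger one. At each time point the control rat that was highest in Bpifb1 was also the highest in Bpifa1. The same was not seen in MWCNT-treated rats. Bpifb1 had 0.148 to 9.5 times the counts of Bpifa1 in control rats and 0.477 to 27.9 times in MWCNT-treated rats. The control rats highest in both genes also had the highest heart muscle sums of their groups, 648, 500.1, and 669.9 TPM at Years 0.5, 1, and 2. Their sums of goblet or gland markers, 29.4, 25, and 29.1 TPM, were the highest too. Their club cell sum was the highest at Year 1 only. The part of tissue composition in these values was not tested.

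**Figure D3:**
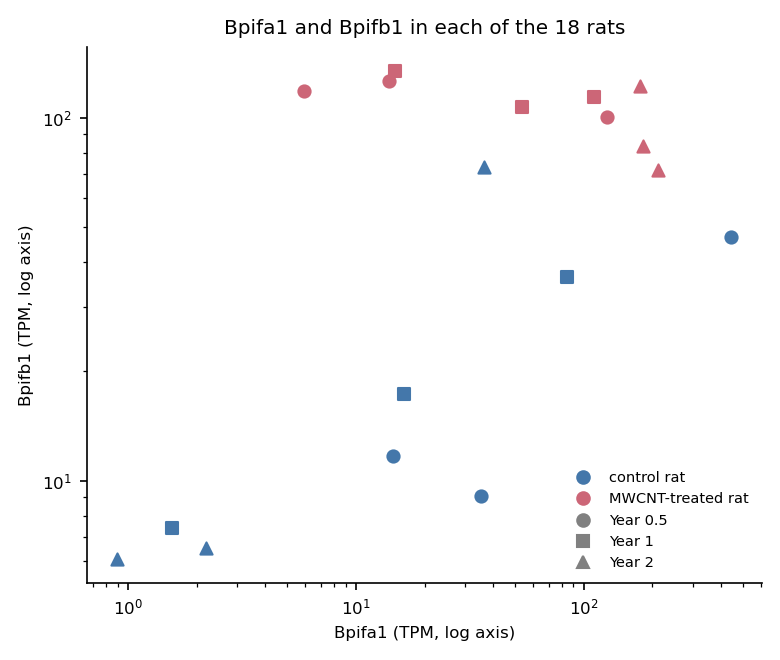
Bpifa1 against Bpifb1 in TPM, both axes logarithmic, with 1 point per rat, colored by treatment and shaped by time point. The MWCNT-treated rats lie in a band between 71.8 and 134 TPM of Bpifb1 over the whole range of Bpifa1 from 5.93 to 211 TPM, and the control rats run from the lower left up to 444 TPM of Bpifa1.

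The bases before the starts of Bpifa1 (GRCr8, chr3:163087815-163087964) and Bpifb1 (GRCr8, chr3:163133001-163133150), both on the plus strand, are given to show where the letters TATAAA lie, in capitals. They are 47 to 42 bases before the Bpifa1 start and 128 to 123 bases before that of Bpifb1.
Bpifa1: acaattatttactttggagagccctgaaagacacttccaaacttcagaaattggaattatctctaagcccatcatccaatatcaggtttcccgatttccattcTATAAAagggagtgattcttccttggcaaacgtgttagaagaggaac
Bpifb1: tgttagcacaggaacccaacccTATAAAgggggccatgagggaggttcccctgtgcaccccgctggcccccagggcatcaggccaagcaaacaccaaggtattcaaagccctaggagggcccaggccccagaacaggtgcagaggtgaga
Of all RefSeq windows of 250 bases before a start, 12.9% held TATAAA on either strand, and 3 of the 7 windows of these genes did, those of Bpifa1, Bpifb1, and Reg3g.

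Other BPIF genes were low. Of the list of other secreted antimicrobial proteins, Bpifa5 had 8.75 to 14.3 TPM in control rats and 7.11 to 15.4 TPM in MWCNT-treated rats and was not a DEG. Bpifb5 was upregulated at Year 1 (log2 fold change 3.16, SE 0.56) and Year 2 (3.73, SE 0.44), from 0 to 6 counts in control rats to 5 to 85 counts in MWCNT-treated rats, and was singled out here after its values were seen. It was not tested at Year 0.5, and as no control rat reached the minimum count of 10 it was tested at Years 1 and 2 only through the MWCNT-treated rats. The secretory cell markers beside them went both ways. Of 5 club cell markers, 1 was upregulated at each time point and 2, 1, and 1 were downregulated, against 3.03%, 4.09%, and 8.22% of all genes downregulated. Cldn10, a claudin, was the one upregulated, with log2 fold changes of 1.33, 1.34, and 1.41. Cyp2f4 was downregulated at each time point, with -1.35, -1.54, and -1.38, and Scgb3a1 at Year 0.5, with -1.99. The Scgb3a1 call was lost without replicate 3 of the control rats or replicate 2 or 3 of the MWCNT-treated rats. Scgb3a2 was not a DEG (-0.54, -0.48, and -0.26). The club cell markers summed to 18182 to 32953 TPM in control rats and 10518 to 15560 TPM in MWCNT-treated rats. That sum was made up mostly of Scgb1a1, the main club cell product (17673 to 32241 TPM in control rats). Scgb1a1 passed the FDR and not the limit at each time point, with log2 fold changes of -0.87, -0.91, and -0.80. The goblet or gland list summed to 11.6 to 29.4 TPM in control rats and 16.1 to 34.2 TPM in MWCNT-treated rats, with Tff2 and Tff3 at no more than 3 counts in every rat. Of its 4 genes tested, 1, 0, and 1 were upregulated, against 6.07%, 6.13%, and 8.17% of all genes. None was downregulated, and the medians were 0.10, 0.01, and 0.87. Spdef, a factor of mucous cells, was the one upregulated. Agr2 (-0.80, -0.47, and -0.79), Muc5b (-0.09, -0.26, and 1.48), and Fcgbp (0.29, 0.29, and 0.67) were not DEGs. The part of these cells in the Bpifa1, Bpifb1, and Slpi values was not tested.

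Reg3g (ENSRNOG00000006579, chr4:109529679-109532234, minus strand) had at most 5 counts in any control rat and more in the MWCNT-treated rats of Years 1 and 2. Reg3g at Year 0.5 had 2, 0, and 3 counts in the control rats and 2, 3, and 2 counts in the MWCNT-treated rats. Reg3g at Year 1 had 3, 0, and 0 counts in the control rats and 55, 10, and 29 counts in the MWCNT-treated rats. Reg3g at Year 2 had 5, 5, and 0 counts in the control rats and 7, 18, and 35 counts in the MWCNT-treated rats. The groups overlapped at Year 0.5 and did not overlap at Year 1 and Year 2, as in 28.0% and 30.9% of all genes tested. The ratio of summed counts, corrected for library size, was 1.3 (95% interval 0.354 to 5.18) at Year 0.5, 32.8 (10.9 to 162) at Year 1, and 6.01 (3.05 to 13.2) at Year 2; these intervals cover counting error only.

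Reg3g did not pass the filter within a time point. It passed over the 18 rats only through the MWCNT-treated rats of Years 1 and 2, the groups where it was high, so that it was tested because of the difference, and its fitted values are given as a description. In the model of all 18 rats its log2 fold change was 0.35 (SE 1.29, FDR 0.851) at Year 0.5, 4.86 (SE 1.02, FDR 0.00106) at Year 1, and 2.54 (SE 0.87, FDR 0.0218) at Year 2. Among the MWCNT-treated rats it was higher at Year 2 than at Year 0.5 by 3.20 (SE 0.92, FDR 0.0286), where 2.34% of all genes were called; the Year 0.5 rats had 2 to 3 counts. The FDR was above 0.05 when any 1 of replicates 1 to 3 of Year 0.5 (FDR 0.0913, 0.0765, and 0.0954) or replicate 2 or 3 of Year 2 (FDR 0.0516 and 0.129) was left out. Year 1 against Year 0.5 gave 3.81 (SE 0.90, FDR 0.163), where 0.0472% of all genes were called.

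Its paralogs had a like pattern at a low level. Reg3b, with 0 to 4 counts in a control rat, had 0, 2, and 3 counts in the MWCNT-treated rats of Year 0.5, 23, 22, and 14 counts at Year 1, and 8, 17, and 11 counts at Year 2. Its ratio of summed counts was 61.7 (10.7 to 2480) at Year 1 and 9.02 (3.23 to 34.9) at Year 2. Reg3a had 0 counts in each control rat and 0 to 22 counts in the MWCNT-treated rats. Reads of these similar genes may have been split between them, so the single values are uncertain. The 150 bases before the starts of Reg3g (GRCr8, chr4:112484739-112484888, minus strand) and Reg3b (chr4:112419626-112419775, plus strand) are shown with TATAAA in capitals, which lies at nearly the same distance from both starts, 32 to 27 bases and 29 to 24 bases.
Reg3g: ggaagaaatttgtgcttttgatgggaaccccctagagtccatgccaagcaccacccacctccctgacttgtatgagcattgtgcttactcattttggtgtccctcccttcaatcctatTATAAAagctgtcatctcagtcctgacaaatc
Reg3b: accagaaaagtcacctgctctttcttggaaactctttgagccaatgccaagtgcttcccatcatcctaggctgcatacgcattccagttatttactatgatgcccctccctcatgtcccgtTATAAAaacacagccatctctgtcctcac

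The order of the group means was set by treatment for Lyz2, Lcn2, Slpi, Pigr, and Bpifb1, with the 3 control groups below the 3 MWCNT-treated groups. For Lyz2 and Lcn2, neighbours within a treatment overlapped, and the only gap in the order was that between the control groups and the MWCNT-treated groups. Pigr had gaps between further neighbours too: mean levels were 446 ± 98 TPM (SD, n = 3) in control rats of Year 2, 620.1 ± 80 at Year 0.5, and 753 ± 40.3 at Year 1, and 1108 ± 146 TPM in MWCNT-treated rats of Year 2, 1335 ± 64.4 at Year 0.5, and 1341 ± 106 at Year 1. Slpi and Bpifb1 overlapped at each step of the order. Bpifa1 did not follow treatment, with control rats of Year 0.5 at 165 ± 242 TPM second to MWCNT-treated rats of Year 2 at 189.7 ± 18.6 TPM. For Reg3g the gap lay below the treated groups of Years 2 and 1, at 3.05 ± 2.18 and 4.84 ± 3.65 TPM.

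The effect of MWCNT did not pass the test for a difference between time points for any of the 7 genes that passed the filter over the 18 rats. No interaction was called by edgeR for Year 1 against Year 0.5, Year 2 against Year 0.5, or Year 2 against Year 1, where 0, 194, and 71 of 14843 genes were called (0%, 1.31%, and 0.478%). At an unadjusted p below 0.05 by edgeR there was 1 of the 7 genes in each (Reg3g, Bpifa1, and Pigr). Over all 14843 genes there were 1260, 2055, and 2446. Reg3g passed the filter only through the groups where it was high. The differences were bounded closely for Lyz2, by -0.21 to 0.32 for Year 2 against Year 0.5, and for Pigr, by -0.09 to 0.67. They were bounded loosely for Bpifb1, by -2.64 to 1.56, and for Reg3g, by -1.37 to 5.74.

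Many of the other secreted antimicrobial proteins were upregulated too. Of a list of 52, 46 were found by name and 23, 25, and 25 were tested at Years 0.5, 1, and 2. Upregulated were 11, 16, and 13 of them, against 6.07%, 6.13%, and 8.17% of all genes, and downregulated 0, 0, and 2, against 3.03%, 4.09%, and 8.22%. Those upregulated include Defb3 at each time point, Bpifb5 at Year 1 and Year 2, and Reg3b at Year 1. With at most 4, 6, and 4 counts in a control rat, these genes were tested only through the MWCNT-treated rats, where they were high. The genes tested had median log2 fold changes of 0.92, 1.39, and 1.33. The 2 that fell, both at Year 2, were Wfdc1 (log2 fold change -1.60, SE 0.15) and Rnase6 (-1.78, SE 0.48), whose call was lost without any 1 of 3 rats (FDR 0.0511 to 0.0555). Called at all 3 time points were 10 genes: Lpo, Defb3, Hp, Chi3l1, S100a9, Ptx3, Sftpd, Sftpa1, Lyc2, and Lbp. Of the list, S100a8, S100a9, Camp, and Ngp also stand among the neutrophil markers, and Sftpa1 and Sftpd among those of alveolar type 2 cells.

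Lpo, the lactoperoxidase that makes hypothiocyanite in airway fluid, was the strongest of these, at 0.138 to 1.85 TPM in control rats and 9.79 to 213 TPM in MWCNT-treated rats, with log2 fold changes of 5.47 (SE 0.28), 7.90 (SE 0.25), and 8.24 (SE 0.38). Defb3, a beta-defensin, had 3.44 (SE 0.77), 6.47 (SE 0.68), and 2.66 (SE 0.56), from at most 1.14 TPM in control rats to 2.8 to 12.9 TPM; with at most 4 counts in a control rat, it was tested only through the MWCNT-treated rats. Hp, the haptoglobin that binds free hemoglobin, had log2 fold changes of 1.97, 2.42, and 2.99 (SE 0.10, 0.11, and 0.10). Sftpa1 and Sftpd, the collectins of surfactant, had 1.50, 1.39, and 1.55 and 1.31, 1.44, and 1.90, and Sftpa1 reached 13071 to 15034 TPM in MWCNT-treated rats. Lbp, which hands endotoxin to its receptor, rose by a little over the limit, with 1.04, 1.01, and 1.23, and its calls at Year 0.5 and Year 1 were lost without 1 rat (0.97 to 1.00).

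**Figure D4:**
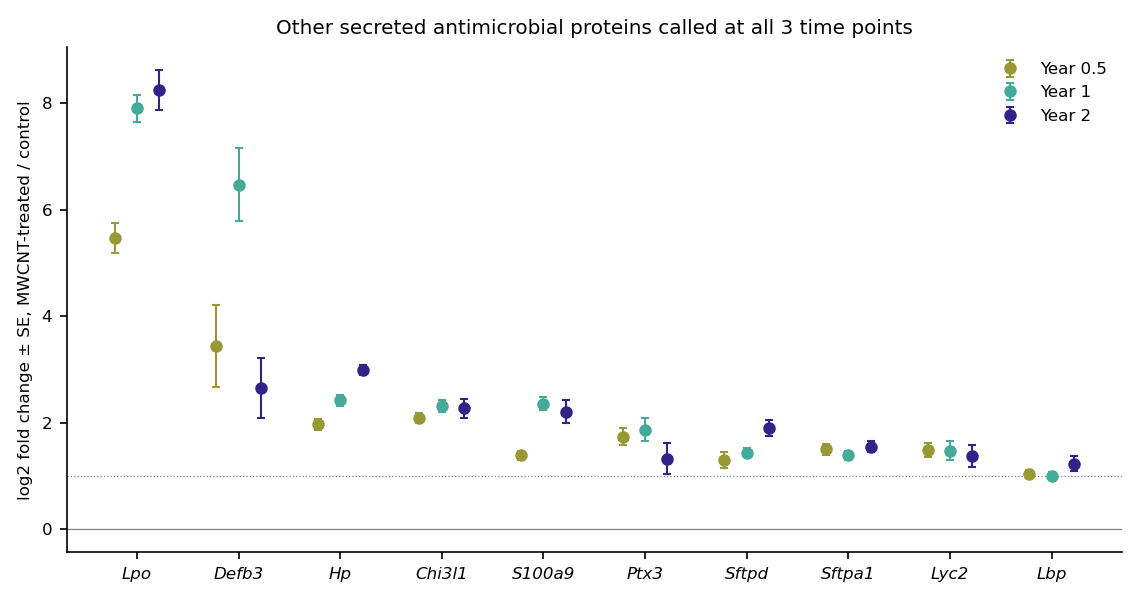
Log2 fold change ± SE of MWCNT-treated against control rats at Years 0.5, 1, and 2 for the 10 other secreted antimicrobial proteins called at all 3 time points. Lpo stands highest, between 5.47 and 8.24, and Lbp lowest, between 1.01 and 1.23.

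Some partners, targets, and receptors of these proteins were upregulated. Of 18 listed, 17 were found and 13, 14, and 14 were tested, with 2, 3, and 3 upregulated, against 6.07%, 6.13%, and 8.17% of all genes, none downregulated, and median log2 fold changes of 0.46, 0.25, and 0.67. Besides Jchain, they were Lrp2 at Year 0.5 (1.42, SE 0.06), an endocytic receptor that takes up lipocalin 2, and Mmp9 (1.12 and 2.35) and Tf (1.38 and 2.19) at Year 1 and Year 2. The Mmp9 call at Year 1 was lost without replicate 2 of the control rats (0.96) or of the MWCNT-treated rats (0.83). Tfrc, the transferrin receptor, passed the FDR and not the limit, with 0.85, 0.53, and 0.73, and so did Anxa2, with 0.60, 0.68, and 0.79. MMP9 forms a complex with lipocalin 2, and transferrin binds iron in plasma. The subunits of the epithelial sodium channel, which BPIFA1 is known to inhibit, were not DEGs, although Scnn1g passed the FDR at each time point, with -0.46, -0.54, and -0.94. Slc22a17, a receptor of lipocalin 2, had 0.12, 0.04, and 0.05.

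The list of cytokines, receptors, and transcription factors known to drive these genes held 38 entries, of which 37 were found and 29, 30, and 30 were tested. Upregulated were 4, 4, and 7, none was downregulated, and the median log2 fold changes were 0.28, 0.30, and 0.39. Osm, the cytokine oncostatin M, had log2 fold changes of 1.70 (SE 0.21), 1.29 (SE 0.31), and 1.49 (SE 0.22), and Spi1, a factor of myeloid cells, had 1.11, 1.33, and 1.26; both were called at each time point. The others were Foxa3 and Spdef at Year 0.5 and Year 2, Osmr and Tlr2 at Year 1 and Year 2, and Cebpa at Year 2. Of these, the calls of Foxa3 at Year 0.5 (FDR 0.0664 to 0.0908), Spdef at Year 2 (0.93), and Tlr2 at Year 1 and Year 2 (0.94 to 0.99) were lost without 1 rat. Il17a, Il17c, Il17f, Il22, Il4, Il6, and Il13, known inducers of these genes or of mucus, did not pass the filter at any time point; of these, Il6 had 0 to 7 counts in control rats and 7 to 22 counts in MWCNT-treated rats. Il1b was not a DEG, with 0.23, 0.31, and -0.22. The shares of all genes upregulated, given above, were 6.07%, 6.13%, and 8.17%.

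Cell type markers moved with treatment as well. Of 10 macrophage markers, 7, 6, and 9 were upregulated, against 6.07%, 6.13%, and 8.17% of all genes, with medians of 1.85, 1.72, and 2.27. Marco, among them at each time point, had 0 to 7 counts in control rats, so it was tested only through the MWCNT-treated rats. The macrophage markers summed to 609 to 819 TPM in control rats and 2999 to 5780 TPM in MWCNT-treated rats. Gpnmb was most of the sum in MWCNT-treated rats, at 2065 to 4353 TPM, against 229 to 367 TPM in control rats. Csf1r passed the FDR and not the limit, with 0.34, 0.34, and 0.55. Of 9 alveolar type 2 markers, 3, 3, and 5 were upregulated, with medians of 0.86, 0.89, and 1.00, and Sftpc had 0.96, 0.97, and 1.00. Sftpc was called at Year 2 only, and that call was lost without 1 rat (0.93 to 1.00). Both cell types make Lyz2, and their part in its values was not tested. Of 7 ciliated cell markers, 1, 5, and 6 were downregulated, against 3.03%, 4.09%, and 8.22% of all genes. Their sum was mostly Tppp3, at 1077 to 1313 TPM in control rats and 205 to 495 TPM in MWCNT-treated rats. The numbers downregulated were 0, 1, and 2 of 6 for alveolar type 1 cells, 2, 0, and 2 of 4 for B cells, 0, 0, and 3 of 4 for T cells, 2, 1, and 3 of 4 for endothelial cells, and 6, 1, and 1 of the 6, 6, and 5 tested for heart muscle. Myl2, the heart muscle marker called at Year 1 and also called at Year 0.5, had at most 4 counts in an MWCNT-treated rat. It was therefore tested only through the control rats, where it was high. Some of the calls of lower markers were lost without 1 rat. These were Kdr, Tek, Myh6, and Tnnt2 at Year 0.5, Rsph1, Rtkn2, and Tek at Year 1, and Cdh5, Dnah5, and Tekt1 at Year 2.

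**Figure D5:**
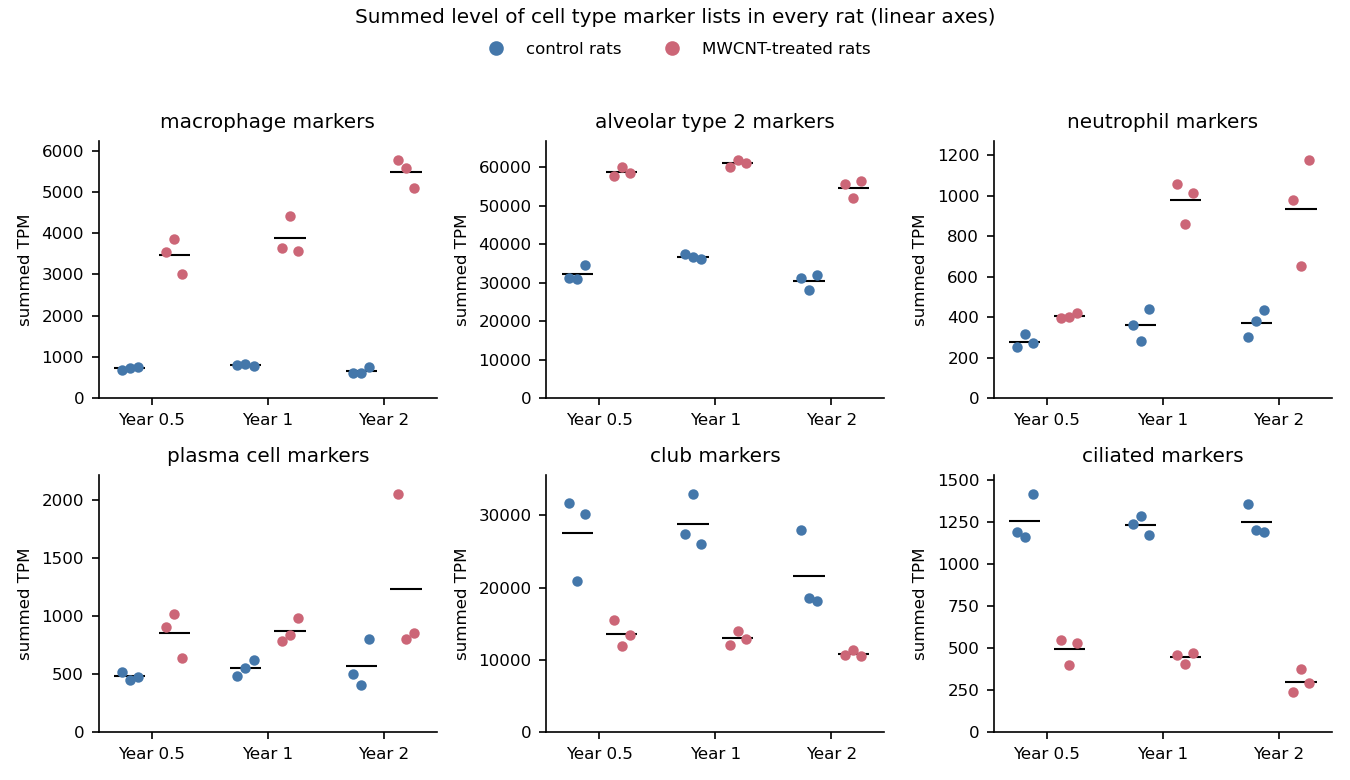
Summed TPM of 6 cell type marker lists on linear axes, with 1 point per rat and a black line for the mean of the 3 rats of a group. Macrophage and alveolar type 2 sums are higher in every MWCNT-treated rat than in any control rat, and club and ciliated sums are lower. Gpnmb makes up most of the macrophage sum in MWCNT-treated rats, Scgb1a1 most of the club sum, and Tppp3 most of the ciliated sum. S100a8 and S100a9 make up most of the neutrophil sum, and Jchain and Sdc1 most of the plasma cell sum.

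The genes whose pattern over the 18 rats was most like that of each gene were listed by the root mean square difference in log2 CPM, centered on each gene's mean, over 14842 genes. Nearest to Lyz2 were Sgpl1 (0.10), Otulinl (0.11), and Oma1 (0.11), and nearest to Pigr were Lamp3 (0.12), Cp (0.13), and Egfl6 (0.16). Lcn2 was nearest to LOC689757 (0.32), Gas2l3 (0.37), and Mylk2 (0.39), and Slpi to Slc38a6 (0.22), S100a11 (0.23), and Lgals3bp (0.23). For Bpifb1 they were Rspo3 (0.63), Serpine2 (0.66), and Galnt5 (0.67). The distances were large for Bpifa1, whose nearest were Clca1 (1.57), Muc5b (1.71), and LOC691352 (1.74), of which Clca1 and Muc5b are products of mucous cells. Reg3g was nearest to its paralog Reg3b (0.78), then to S100a9 (0.88) and Foxs1 (0.89). Among the genes described here the closest pair was Lyz2 and Pigr, at 0.27.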

How the data were processed

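Lung RNA of 18 rats was extracted with the RNeasy kit and made into libraries with the NEBNext Ultra II kit. The authors mapped the reads with CLC Genomics Workbench 22.0.2, and the processing notes name Rnor_6.0 and rn6. They deposited raw counts per gene, not normalized, and TPM from the same software. How reads with several matches were counted, and the strand setting, are not given in the sources used here. The deposited RPKM and TMM-adjusted CPM columns and the authors' comparison columns (fold changes and p-values) were not used.

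Genes were filtered with filterByExpr (minimum count 10, minimum total 15), scaled by TMM, and tested with edgeR 4.0.16 (glmQLFit, glmQLFTest; R 4.3.3) on the 6 rats of a time point. Interactions and effects of time came from 1 model of 18 rats. DEGs followed the criterion of the study, an FDR (Benjamini-Hochberg) under 0.05 with a log2 fold change over 1 in size; interactions needed the FDR only. Log2 CPM used a prior count of 2. Alternatives were DESeq2 1.42.0, limma 3.58.1 on log2(TPM + 1) and log2(TPM + 0.1), other filters and scalings, a replicate block, and leaving out each rat. The procedure was tested on simulated data. Groups came from the sample titles, each library being 1 rat. Counting intervals are at 95%, and a count of 0 was taken to allow 3 counts.

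All 8 genes are named. Of each related list, up to 8 entries called at all 3 time points in 1 direction were named by size, and any further entries were picked with their values known. The genes and lists were chosen with earlier results of these data known. RefSeq windows (GRCr8) were matched by symbol for 7 of the 8.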

Additional observations from a re-analysis of the deposited data

How the results depend on the processing

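Direction and call of Lyz2 and Lcn2 were kept at every time point under each alternative and without any 1 rat, and so was the direction of Pigr, Slpi, and Bpifb1. At Year 1 the number of these genes called was 5, and 3 with scaling by library size only and with limma on log2(TPM + 1) or log2(TPM + 0.1), where Slpi (0.88, 0.73, and 0.73) and Pigr (0.93, 0.83, and 0.83) fell under the limit on the fold. At Year 0.5 the number was 5, and 4 with each of these settings, where Slpi (0.94, 0.89, and 0.90) fell under the limit. Scaling by upper quartile gave 4 at Year 1. Slpi was not called in 3 of 10 alternatives at Year 0.5 and in 5 of 10 at Year 1. Scaling by library size moved the median log2 fold change of all genes to -0.12, -0.13, and -0.18, and the DEGs from 869 higher and 434 lower to 760 and 643 at Year 0.5, from 880 and 587 to 739 and 895 at Year 1, and from 1174 and 1181 to 948 and 1583 at Year 2. By FDR alone, the number at Year 2 was 5, and 5549, 5913, and 7067 of all genes passed. With 1 rat left out, 4 to 5, 5 to 6, and 4 to 5 of the genes were called at Years 0.5, 1, and 2; Reg3g then passed the filter for 4 of the 6 rats at Year 1, called in all 4, and for 4 at Year 2, called in 1, in each case through the MWCNT-treated rats alone, since no control rat had over 5 counts. Bpifa1 at Year 0.5, -1.63, ranged from -3.94 to 1.10 without 1 rat, turning with replicate 3 of the control rats left out, and DESeq2 gave it no adjusted p at Year 2 (NA). With at least 10 counts required in every rat, Bpifa1 was not tested at Year 2, since a control rat had 8. Bpifb1 at Year 2 passed in 7 of 10 alternatives (log2 fold change 1.77 to 2.67, FDR 0.0264 to 0.143).

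Reg3g, the 1 gene called for Year 2 against Year 0.5 in MWCNT-treated rats and tested only through the groups where it was high, was not called (0) with at least 10 counts in every rat, with limma on log2(TPM + 0.1), with only the 6 rats compared, or, for 5 of the 6 rats, without 1 rat (0 to 1). For Year 1 against Year 0.5 it was called by DESeq2 and by the likelihood ratio test of edgeR (1 in each). Pigr passed the FDR alone in control rats (1 in each comparison with Year 2), and its interaction for Year 2 against Year 1 was called without 1 rat (0 to 1).

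Replicate numbers did not pair the rats: deviations of same-numbered control and MWCNT-treated rats correlated at -0.1473 to 0.1067 (n = 9 pairs), those of other numbers at -0.1633 to 0.1647. With the replicate number as a block, 5, 5, and 5 of the genes were called; Slpi at Year 1 (0.98) was lost, and Bpifa1 at Year 1 (1.58, FDR 0.00837) and Bpifb1 at Year 2 (2.67, FDR 0.0292) were gained. The causes of these changes were not tested. With 3 rats a group and standard errors of 0.40 to 1.27 for Bpifa1 and Bpifb1, small differences in these genes were not detectable.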
